A study of Mus musculus with 8 samples.

Results

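The 10 genes described here carry the nitric oxide signal from its source in vascular endothelium to the enzymes that read and erase cyclic GMP (cGMP). They were chosen by name: Nos3 (endothelial nitric oxide synthase), the soluble guanylate cyclase subunit genes Gucy1a3, Gucy1a2 and Gucy1b3, the cGMP-dependent protein kinase genes Prkg1 and Prkg2, and the phosphodiesterase genes Pde5a, Pde1a, Pde1b and Pde9a. All 10 had a row among the 15728 genes of the deposited table, which lists Gucy1a1 and Gucy1b1 under the older names Gucy1a3 and Gucy1b3. The 8 libraries were made from lung, 4 from wild type mice and 4 from mice labelled triply n/i/eNOSs-/-, which lack all nitric oxide synthases (neuronal, inducible, endothelial). Both groups were C57BL/6J, 4 weeks old and unexposed. The sources used here do not say how each synthase gene was disrupted, and they give no sex, litter or time of tissue collection. Transcripts were counted by CAGE (cap analysis of gene expression), a method that reads RNA from its capped 5′ end. Each captured RNA thus gives 1 read whatever its length, so that CPM (reads of a gene scaled to a common library total) of different genes can be set side by side without a correction for length.

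Nitric oxide made by Nos3 in endothelial cells diffuses into neighbouring smooth muscle cells and pericytes, where it binds the haem of soluble guanylate cyclase. That enzyme is a heterodimer of an alpha subunit (Gucy1a3 or Gucy1a2) and the beta subunit Gucy1b3, and it turns GTP into cGMP. cGMP activates the kinases encoded by Prkg1 and Prkg2. In smooth muscle the Prkg1 product lowers calcium and the calcium sensitivity of contraction. Phosphodiesterases end the signal by hydrolysing cGMP. In the lung this route relaxes pulmonary vessels, and inhibitors of Pde5a and stimulators of the cyclase are used against pulmonary hypertension.

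Library totals, recovered from the steps of the CPM values, were 15598154 to 18593913 reads in wild type and 13014134 to 15096188 reads in the triple knockout, so every knockout library was shallower than every wild type library. The rarest of the 10 genes, Pde1b, still had 27 to 43 reads in each library. The genotypes differed widely: of 14065 genes tested with limma on log2(CPM + 0.5), 30.9% were called at an adjusted p under 0.05, 16.6% as higher and 14.3% as lower in the knockout. The labels do not say whether each library is a separate mouse, so the p-values measure only the spread between these samples, which may be technical. In bulk lung, fewer cells of a type and less RNA per cell cannot be told apart.

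Among the 10 genes, Nos3 and Gucy1b3 fell and Gucy1a2 rose in the knockout, and the other 7 did not pass the test. All 10 passed the filter on low values. That is 3 of 10 called, beside 30.9% of all genes tested, so the share is that of the background. The median log2 fold change was -0.02 over the 10 genes and 0.01 over all genes tested. The genotypes did not overlap for Nos3, Gucy1a2 and Pde1a, which is 3 of 10 beside 31.2% of all genes tested. Both counts include Nos3, which is itself a gene disrupted in the knockout.

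**Figure D1:**
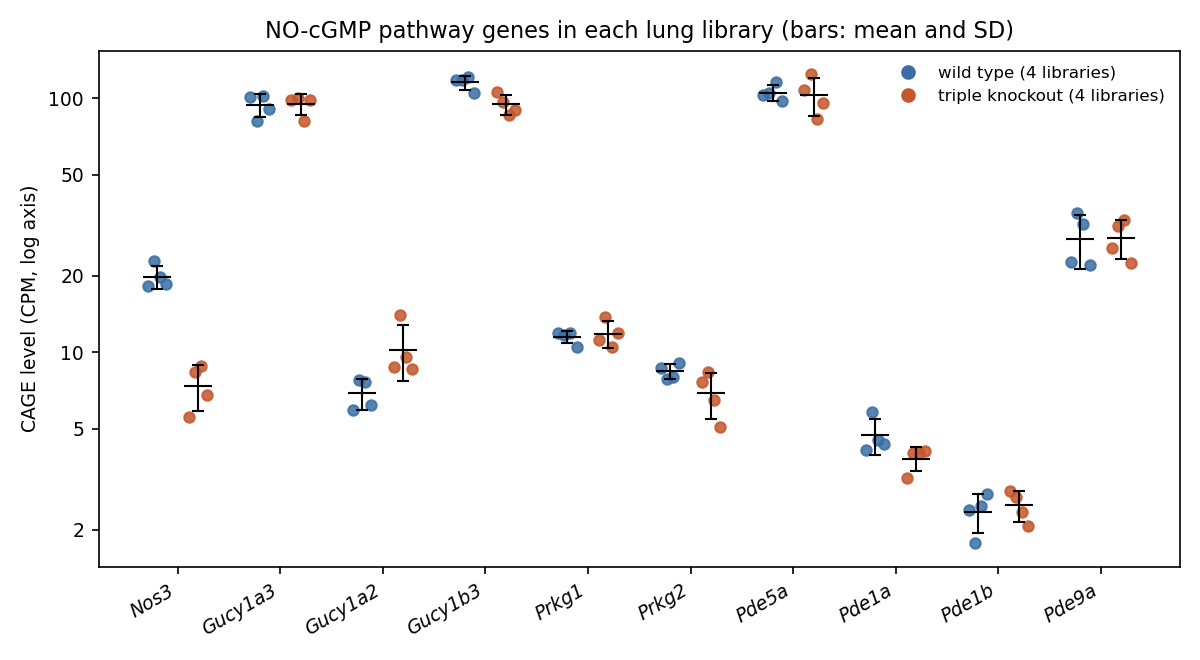
CPM (log axis) of each gene in each of the 8 libraries, wild type in blue and triple knockout in orange, with bars for mean and SD over 4 libraries. Nos3 is lower in all 4 knockout libraries and Gucy1a2 higher, whereas Gucy1a3, Pde5a and Pde9a lie in the same range in both genotypes.

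Nos3 stood at 18.2, 22.8, 19.8 and 18.6 CPM in wild type replicates 1 to 4 and at 5.56, 8.32, 8.83 and 6.76 CPM in knockout replicates 1 to 4. The highest knockout library lay well below the lowest wild type library. The mean went from 19.8 ± 2.06 to 7.37 ± 1.49 CPM (SD, n = 4 each), or 0.372 times the wild type level (log2 fold change -1.38, SE 0.14, 95% interval -1.69 to -1.08, limma adjusted p = 4.6e-05). In the knockout this level rested on 84 to 128 reads per library, far above the floor of 3 reads. In knockout replicate 1, the lowest, 84 reads gave 5.56 CPM with an exact 95% Poisson interval of 4.44 to 6.89 CPM, which covers counting error only. Reads still counted for Nos3 check the label only weakly, since the sources used here do not say where they lie relative to the disrupted part. Of 5 genes in a list of other synthases and their binding partners, 3 had a row, and none of these was a synthase. No value of Nos1 or Nos2 is given here. Of all genes tested, 99 fell by more than Nos3 on the log2 scale.

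Of 20 endothelial markers 5 rose and 1 fell (30% called, beside 30.9% of all genes tested; median log2 fold change 0.05), and their summed level was 3324 to 3660 CPM (wild type) and 3412 to 3822 CPM (knockout). Pecam1, an adhesion molecule of endothelial junctions, went from 270 ± 24.2 to 289.9 ± 23.5 CPM without passing the test, and Cdh5, the endothelial cadherin, rose from 171 ± 17.5 to 204 ± 20.8 CPM (adjusted p = 0.043). The largest rise, named after its value was seen, was that of Emcn, from 29.9 ± 4.11 to 51.6 ± 2.95 CPM (adjusted p = 0.00018). Tspan7, a tetraspanin, was the marker that fell, from 234 ± 32.4 to 181 ± 18.8 CPM (adjusted p = 0.021). Set against the mean log2 level of the 20 markers within each library, Nos3 was at -2.59, -2.32, -2.60 and -2.52 in wild type and at -4.29, -3.89, -3.69 and -4.03 in the knockout. The difference of -1.47 on the log2 scale was as large as that of Nos3 alone. The exact permutation p was 0.0286, the smallest that 4 against 4 libraries allow, and 0.0667 after adjustment over 7 such within-library measures.

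Around Nos3 on chromosome 5 the nearest 10 listed genes on each side were read in the order of the GRCm38 annotation. Of these 20 genes 6 rose and 5 fell, beside 16.6% higher and 14.3% lower among all genes tested, so both shares were above the background. Whether these neighbours differ from the background was not tested. The nearest listed gene on the one side, the potassium channel gene Kcnh2, averaged 2.78 ± 0.35 CPM (wild type) and 2.61 ± 0.37 CPM (knockout) (adjusted p = 0.70). The nearest on the other, the mitochondrial transporter gene Abcb8, rose from 10.3 ± 1.16 to 13.6 ± 1.06 CPM (adjusted p = 0.014). Rint1, a gene of vesicle traffic, had the largest fall of the 20 (from 21.4 ± 1.54 to 11.8 ± 1.25 CPM), and Fam126a the largest called rise (from 37.4 ± 1.52 to 56.4 ± 5.21 CPM). These neighbours were named after their values were seen.

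Of the subunits of soluble guanylate cyclase, Gucy1b3 fell, Gucy1a2 rose and Gucy1a3 did not pass the test. The calls of Gucy1b3 and Gucy1a2 each ended when certain single libraries were left out. Gucy1b3, the haem-binding beta subunit that every form of the enzyme needs, stood at 118, 118, 121 and 104 CPM in wild type replicates 1 to 4 and at 106, 96.4, 86.1 and 90.1 CPM in knockout replicates 1 to 4. The lowest wild type library, replicate 4, lay just under the highest knockout library, replicate 1. The mean fell from 115 ± 7.46 to 94.6 ± 8.58 CPM (log2 fold change -0.29, SE 0.08, adjusted p = 0.016), or 0.820 times wild type. Without knockout replicate 3 the call ended (log2 fold change -0.24, adjusted p = 0.0501; 0.00098 to 0.0501 over all alternatives).

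Gucy1a2, the rarer alpha subunit, moved the other way. It stood at 5.92, 7.80, 7.62 and 6.22 CPM in wild type replicates 1 to 4 and at 8.74, 14.0, 9.59 and 8.61 CPM in knockout replicates 1 to 4. All knockout libraries were above all wild type libraries, with knockout replicate 2 far above the other 3. The mean rose from 6.89 ± 0.96 to 10.2 ± 2.55 CPM (log2 fold change 0.52, SE 0.16, adjusted p = 0.026), a ratio of 1.49. Without knockout replicate 2 the log2 fold change was 0.37 and the call stayed (adjusted p = 0.047). It ended without wild type replicate 1 (adjusted p = 0.073) or wild type replicate 4 (0.068; 0.0070 to 0.073 over all alternatives).

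Gucy1a3, the main alpha subunit of the lung libraries, did not pass the test. It stood at 101, 81.5, 102 and 90.8 CPM in wild type replicates 1 to 4 and at 98.8, 100.3, 80.9 and 98.7 CPM in knockout replicates 1 to 4. The ranges almost coincide, with 1 low library in each genotype. The log2 fold change was 0.01 with a 95% interval of -0.19 to 0.21 (adjusted p = 0.92), so that a change beyond 0.88-fold or 1.16-fold lies outside the interval. Its sign turned with the processing, being negative in 9 of 18 alternatives.

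The promoters of the called cyclase genes are shown because Gucy1a2 rose and Gucy1b3 fell. RefSeq sequences (build GRCm38.p6) matched 7 of the 10 genes. Each of the following is the 250 bases before the annotated start. Capitals mark matches on either strand to the GC box GGGCGG, the CCAAT box CCAAT and the E-box CACGTG; the TATA box TATAAA and the CArG box of smooth muscle genes were also searched, and no match overlapped another.
Gucy1a2 (chr9:3532099-3532348, plus strand): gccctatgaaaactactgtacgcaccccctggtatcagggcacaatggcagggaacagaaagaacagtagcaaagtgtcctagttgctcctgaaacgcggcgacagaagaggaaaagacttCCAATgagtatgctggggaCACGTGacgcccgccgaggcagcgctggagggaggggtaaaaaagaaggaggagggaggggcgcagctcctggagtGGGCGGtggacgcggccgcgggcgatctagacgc
Gucy1b3 (chr3:82074712-82074961, minus strand): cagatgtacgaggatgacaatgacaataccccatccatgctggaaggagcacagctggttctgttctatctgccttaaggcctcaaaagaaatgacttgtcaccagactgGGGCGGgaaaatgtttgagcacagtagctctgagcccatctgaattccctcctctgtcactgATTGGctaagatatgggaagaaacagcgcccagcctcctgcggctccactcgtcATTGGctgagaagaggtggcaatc
The Gucy1a2 window held 1 GC box, 1 CCAAT box and 1 E-box, with 59.6% G and C. The Gucy1b3 window held 1 GC box and 2 CCAAT boxes read from the opposite strand, with 51.2% G and C. Of 32851 RefSeq promoter windows of this length, 32.7% held a GC box, 33.8% a CCAAT box, 12.4% a TATA box, 6.02% the E-box and 1.47% a CArG box. The median G and C content was 52.4%. A match of letters is a description and not a site of binding.

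Within a library, the 2 alpha subunits together were set against the beta subunit. The log2 ratio was -0.14, -0.40, -0.14 and -0.10 in wild type replicates 1 to 4 and 0.02, 0.24, 0.07 and 0.25 in knockout replicates 1 to 4. The ratio was thus negative in every wild type library and positive in every knockout library. In knockout replicates 1 and 3 the exact Poisson intervals of Gucy1b3 were 100.7 to 111.1 and 81.4 to 91.0 CPM. The alpha sum lay inside both, so an excess of alpha was not resolved from counting error there. Whether the 5′ ends of these genes are captured equally was not tested. The difference of 0.35 between the mean log2 ratios of the genotypes had an exact permutation p of 0.0286. Its adjusted p over the 7 measures was 0.0667, so it did not pass. The share of Gucy1a2 in the alpha subunit CPM was 6.91% ± 1.35 in wild type and 9.75% ± 2.05 in the knockout, with overlap between 5.53% to 8.74% and 8.02% to 12.3% (exact permutation p = 0.0857, adjusted p = 0.12). The sum of all 3 subunits averaged 216 ± 14.0 CPM (wild type) and 199.5 ± 16.7 CPM (knockout).

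**Figure D2:**
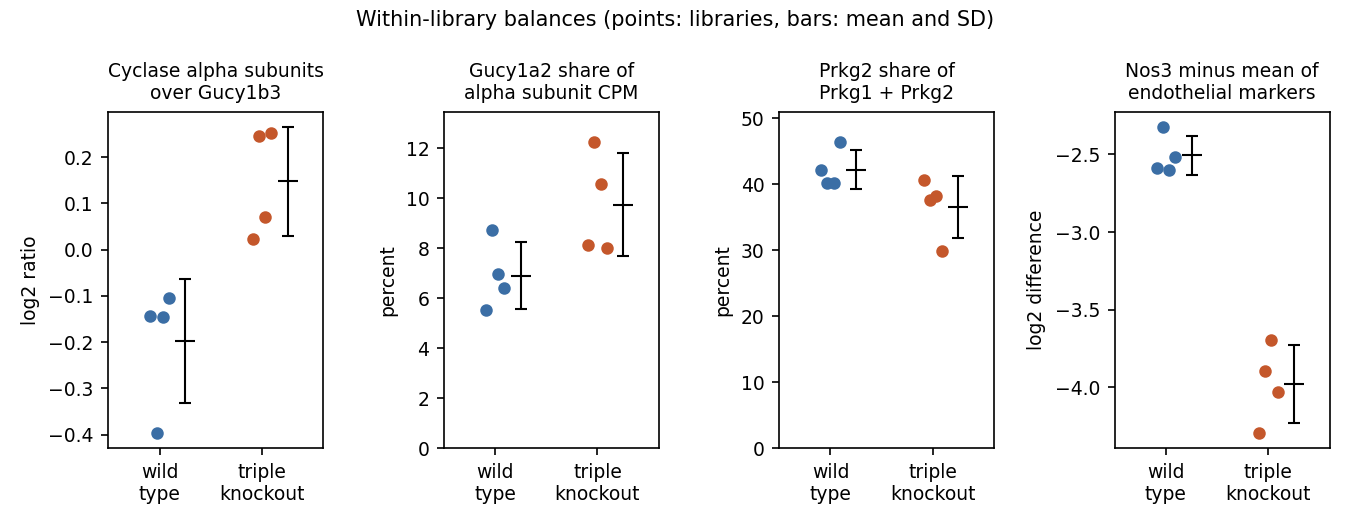
Within-library balances of 4 pairs or groups of genes, in log2 units or percent, with 1 point per library and bars for mean and SD over 4 libraries. The log2 ratio of alpha to beta cyclase subunits runs from -0.40 to -0.10 in wild type and from 0.02 to 0.25 in the knockout, and the 2 shares overlap.

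Neither cGMP-dependent kinase gene passed the test. Prkg1, whose product is the main cGMP kinase of smooth muscle, stood at 11.9, 11.7, 11.9 and 10.5 CPM in wild type replicates 1 to 4 and at 11.1, 13.8, 10.5 and 11.9 CPM in knockout replicates 1 to 4. Its log2 fold change was 0.03 with a 95% interval of -0.18 to 0.25 (adjusted p = 0.82). The gene Cstf2t lies within Prkg1 and is listed at 27.6 ± 3.05 CPM (wild type) and 28.1 ± 1.89 CPM (knockout). No listed gene starts close to the start of Prkg1, and the sources used here do not state whether counting used strand.

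Prkg2, the membrane-anchored kinase known from intestine, cartilage and brain, stood at 8.67, 7.85, 7.97 and 9.10 CPM in wild type replicates 1 to 4 and at 7.62, 8.32, 6.49 and 5.07 CPM in knockout replicates 1 to 4. Knockout replicate 2 was inside the wild type range and the other 3 were below it. The log2 fold change was -0.29 with a 95% interval of -0.59 to 0.02 (adjusted p = 0.14; 0.059 to 0.32 over all alternatives). The Prkg2 share of both kinase genes was 42.2% ± 2.94 in wild type and 36.6% ± 4.67 in the knockout (exact permutation p = 0.0857, adjusted p = 0.12). In wild type the SD of Prkg2 was 0.84 times that of counting alone, and in the knockout it was 2.06 times.

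None of the 4 phosphodiesterase genes passed the test. Pde5a, the cGMP-specific enzyme of vascular smooth muscle, was the most abundant of them, at 103, 104, 116 and 97.5 CPM in wild type replicates 1 to 4 and at 108, 124, 82.7 and 95.4 CPM in knockout replicates 1 to 4. The knockout libraries spread on both sides of the wild type range. The log2 fold change was -0.05 with a 95% interval of -0.29 to 0.19 (adjusted p = 0.76). The knockout SD was 6.65 times the counting SD, against 3.18 times in wild type.

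Pde9a, which has a high affinity for cGMP, stood at 22.6, 35.3, 32.0 and 22.1 CPM in wild type replicates 1 to 4 and at 25.7, 31.3, 33.0 and 22.5 CPM in knockout replicates 1 to 4. In each genotype replicates 2 and 3 were high and replicates 1 and 4 low. It had the widest interval of the 10 genes, -0.34 to 0.38 around a log2 fold change of 0.02 (adjusted p = 0.93).

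The calmodulin-dependent enzymes Pde1a and Pde1b, which take both cGMP and cAMP, were the least abundant of the 10 genes. Pde1a stood at 4.13, 5.81, 4.50 and 4.36 CPM in wild type replicates 1 to 4 and at 3.18, 3.99, 4.00 and 4.07 CPM in knockout replicates 1 to 4. The groups did not overlap, by a gap smaller than the spread within either, and the log2 fold change of -0.27 (95% interval -0.56 to 0.02) did not pass (adjusted p = 0.15). Pde1b stood at 2.35 ± 0.42 CPM in wild type, from 1.77 to 2.76 CPM, and at 2.49 ± 0.35 CPM in the knockout, from 2.07 to 2.85 CPM (adjusted p = 0.74). Its SD was 1.12 times the counting SD in wild type and 0.84 times in the knockout, so that at this depth its libraries differ by little more than counting error.

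Pde5a made up 75.2% ± 3.13 of the CPM of the 4 phosphodiesterases in wild type and 74.6% ± 4.59 in the knockout (exact permutation p = 0.77, adjusted p = 0.77). With the listed enzymes Pde3a, Pde3b and Pde2a added, Pde5a took 58.6%, Pde3a, whose activity on cAMP is inhibited by cGMP, took 17.7% and Pde9a 15.6% of the wild type sum. The same shares in the knockout were 60.2%, 15.4% and 16.5%. Pde3a averaged 31.7 ± 2.47 CPM (wild type) and 26.2 ± 3.71 CPM (knockout) (adjusted p = 0.056).

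**Figure D3:**
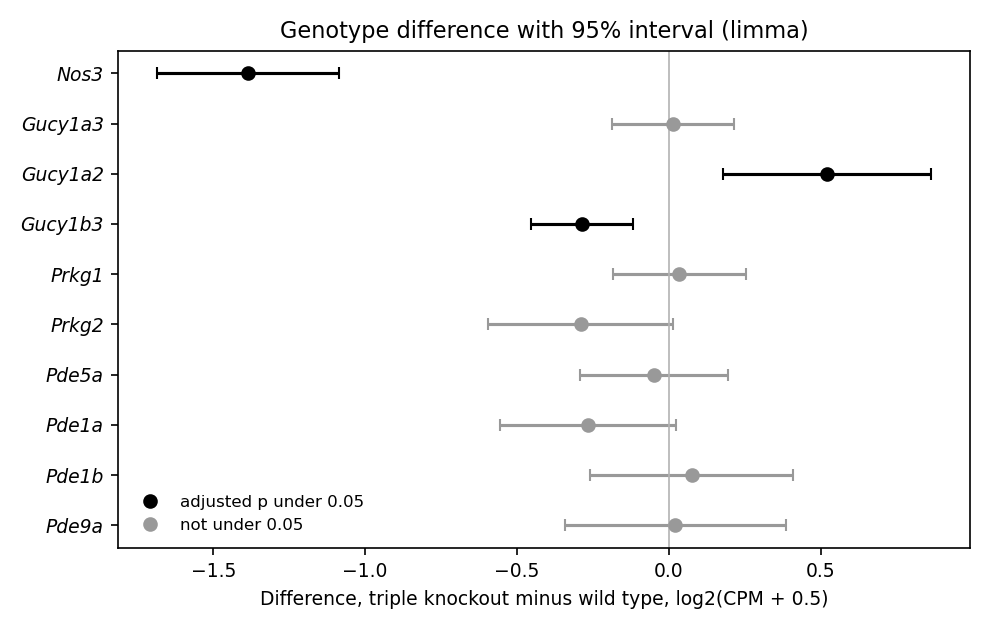
Log2 fold change of each gene, triple knockout minus wild type on log2(CPM + 0.5), with its 95% interval from limma; black points have an adjusted p under 0.05. Nos3 (-1.38) and Gucy1b3 (-0.29) lie below 0 and Gucy1a2 (0.52) above it, and the intervals of the other 7 include 0.

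Gucy1a2 and Prkg2 changed places in the order of mean levels. Gucy1a2 was 5.92 to 7.80 CPM against 7.85 to 9.10 CPM of Prkg2 in wild type, and 8.61 to 14.0 CPM against 5.07 to 8.32 CPM in the knockout. The ranges did not overlap, but in wild type replicate 2 the genes had 145 and 146 reads. Their exact 95% Poisson intervals there were 6.58 to 9.18 and 6.63 to 9.23 CPM, so the wild type order was not resolved from counting error in that library. In wild type the order ran Gucy1b3, Pde5a, Gucy1a3, Pde9a, Nos3, Prkg1, Prkg2, Gucy1a2, Pde1a and Pde1b. The ranges over 4 libraries overlapped between Gucy1b3 and Pde5a, between Pde5a and Gucy1a3, and between Pde9a and Nos3. Within every wild type library, however, the first gene of each pair was above the second. Whether the levels of these neighbours differ was not tested. In the knockout Pde5a, Gucy1a3 and Gucy1b3 overlapped at the top, at 103 ± 17.8, 94.7 ± 9.18 and 94.6 ± 8.58 CPM. Pde9a came next, followed by Prkg1, Gucy1a2, Nos3 and Prkg2, each overlapping its neighbour from Prkg1 on, and then by Pde1a and Pde1b.

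Other genes of the pathway, taken from lists of its parts, moved in both directions. Of 81 genes 54 were listed and 51 tested, of which 7 rose and 7 fell, beside 16.6% and 14.3% of all genes tested. Their median log2 fold change was -0.04. The number that fell was 12 with TMM scaling, median-ratio scaling, quantile normalization, edgeR or DESeq2, and 3 to 11 when 1 library was left out.

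Of the receptor cyclases, which make cGMP on binding natriuretic peptides at the cell surface, Npr2 fell in all 4 knockout libraries. It stood at 19.0, 20.5, 16.8 and 16.3 CPM in wild type replicates 1 to 4 and at 12.1, 12.2, 10.2 and 8.68 CPM in knockout replicates 1 to 4 (log2 fold change -0.73, SE 0.12, adjusted p = 0.0013). Npr1 averaged 19.1 ± 1.97 CPM (wild type) and 20.1 ± 1.68 CPM (knockout) (adjusted p = 0.56). Abcc4, a pump that exports cGMP and cAMP, rose from 2.93 ± 0.45 to 4.83 ± 0.53 CPM (adjusted p = 0.0046), and Abcc5, another cGMP exporter, averaged 28.6 ± 2.55 CPM (wild type) and 33.1 ± 3.80 CPM (knockout). Cyb5r3, the reductase that keeps the cyclase haem in its ferrous state, ranged over 214.5 to 240.9 CPM (wild type) and 221.7 to 242.1 CPM (knockout). The Nos3 binding partners Nosip and Nostrin and the Nos1 adaptor Nos1ap did not pass the test.

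Among 17 substrates and partners of the cGMP-dependent kinases 5 rose and 3 fell (47.1% called, beside 30.9% of all genes tested; median log2 fold change 0.07). The number that fell was 0 without wild type replicate 3 or knockout replicate 4 and 1 when wild type replicate 2, wild type replicate 4 or knockout replicate 3 was left out, and the number that rose was 3 with quantile normalization or without knockout replicate 3. Ppp1r12b, a targeting subunit of myosin phosphatase, rose from 32.6 ± 2.39 to 44.2 ± 1.42 CPM (log2 fold change 0.44, adjusted p = 0.0011). Trpc6, a calcium-permeable channel, rose from 17.5 ± 2.02 to 22.7 ± 1.53 CPM (adjusted p = 0.012). Rhoa, the small GTPase that opposes relaxation, rose from 481 ± 15.6 to 549.7 ± 11.5 CPM (log2 fold change 0.19, adjusted p = 0.015), a call that ended with quantile normalization (0.17). The remaining calls, named after their values were seen, were rises of Csrp2 and Vim and falls of Rgs2, Gtf2i and Atp2a2. Each was lost when 1 of several libraries was left out. That of Vim was also lost with all 3 other scalings, edgeR and DESeq2 (adjusted p 0.071 to 0.15). Rgs2, which shortens signalling by Gq-coupled receptors, was 23.5, 36.8, 43.1 and 26.0 CPM in wild type replicates 1 to 4 and 24.0, 21.3, 20.2 and 15.8 CPM in knockout replicates 1 to 4, so the genotypes overlapped. Mrvi1, the kinase's partner on the calcium release channel, averaged 1.57 ± 0.24 CPM (wild type) and 1.77 ± 0.80 CPM (knockout), and Vasp, the substrate often used to read kinase activity, averaged 115 ± 8.01 and 120.3 ± 5.85 CPM.

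Of 13 genes of the contraction and relaxation machinery 1 rose and 2 fell (23.1% called, beside 30.9% of all genes tested). The number that fell was 6 with TMM scaling, median-ratio scaling, quantile normalization, edgeR or DESeq2 and 6 without knockout replicate 1, and it was 1 when either of wild type replicates 2 and 3, or of knockout replicates 3 and 4, was left out. Arhgef12, an activator of Rhoa, fell from 71.0 ± 3.51 to 54.4 ± 8.29 CPM (adjusted p = 0.012). Rock2, a kinase downstream of Rhoa, fell from 47.7 ± 8.43 to 35.3 ± 6.76 CPM (adjusted p = 0.043) and lost its call in 6 of 18 alternatives. Of 7 cAMP-specific phosphodiesterases tested, Pde8b fell to a level of 11.6 ± 1.65 CPM from 15.3 ± 0.93 CPM (adjusted p = 0.016), whereas 6 did not pass. The 2 cyclic nucleotide gated channels with a row stayed under the filter, with a sum of at most 0.35 CPM in any library.

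**Figure D4:**
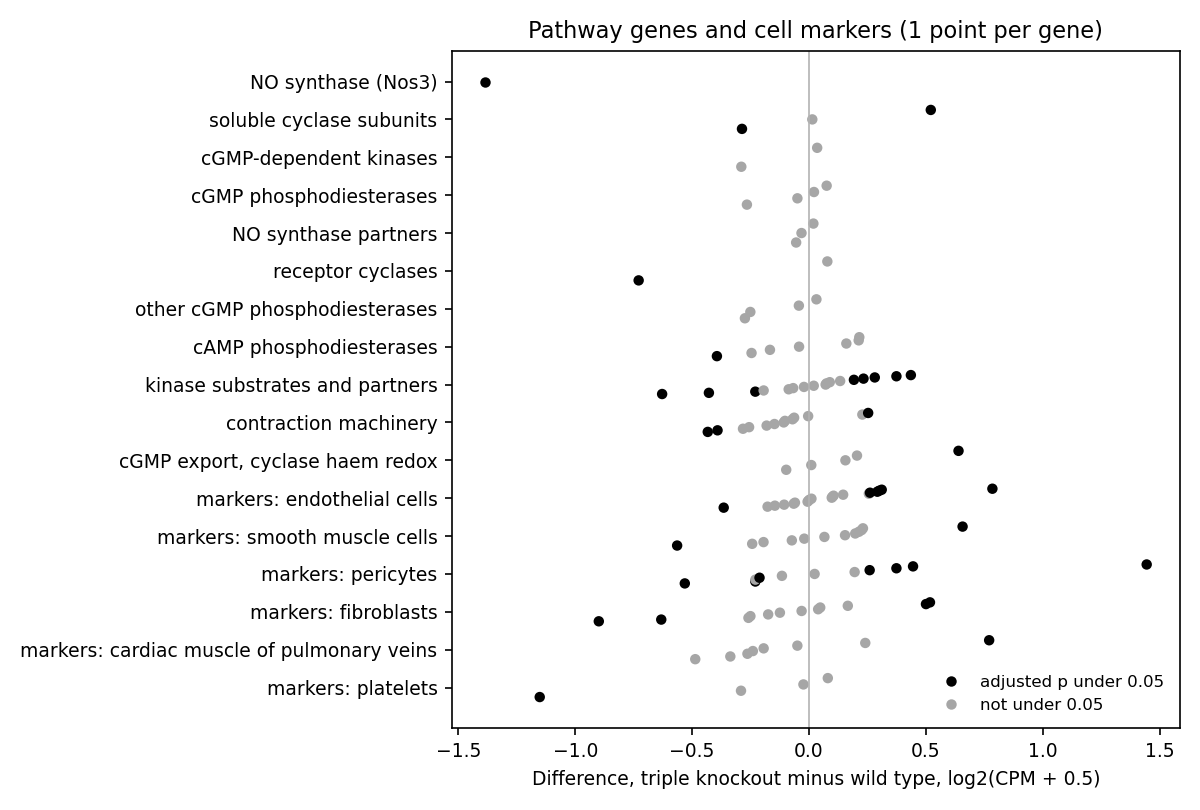
Log2 fold change, triple knockout minus wild type, of each gene tested in the pathway and marker lists, 1 point per gene, black where the adjusted p is under 0.05; Nppa, a marker of cardiac muscle, is off the axis. Points lie on both sides of 0 in every list of at least 7 genes, and Nos3 lies apart from the other pathway genes.

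Genes that mark the cells in which cGMP acts also moved in both directions, and none was at 0 in all libraries. Of 12 smooth muscle markers 1 rose and 1 fell (16.7% called), with a summed level of 691 to 763 CPM (wild type) and 664 to 843 CPM (knockout). Acta2, smooth muscle actin, stood at 75.5 ± 4.66 and 90.5 ± 22.1 CPM without passing the test (adjusted p = 0.24), and Tagln, an actin-binding protein, fell from 88.9 ± 2.03 to 60.6 ± 10.3 CPM (adjusted p = 0.0025). Myocd was the marker that rose, from 1.88 ± 0.32 to 3.27 ± 0.63 CPM (adjusted p = 0.010). Of 11 pericyte markers other than Gucy1b3, 4 rose and 3 fell (63.6% called, beside 30.9% of all genes tested; median log2 fold change 0.02), with a summed level of 519 to 552 CPM (wild type) and 529 to 613 CPM (knockout). Among them Pdgfrb, a receptor that marks the cell type, rose from 58.8 ± 4.99 to 80.6 ± 12.2 CPM (adjusted p = 0.0077), and Rgs5, a regulator of G protein signalling, from 9.97 ± 0.66 to 29.1 ± 10.1 CPM (adjusted p = 0.00025). Notch3, a receptor of mural cells, fell from 21.8 ± 2.10 to 15.02 ± 2.43 CPM (adjusted p = 0.0061). The summed level of these markers overlapped between genotypes, as did Gucy1b3 itself. How the fall of Gucy1b3 relates to these markers was not tested. The mean log2 level of Gucy1a3, Gucy1b3 and Prkg1, less that of the pericyte markers, was 1.09 ± 0.08 in wild type and 0.88 ± 0.14 in the knockout, without overlap (exact permutation p = 0.0286, adjusted p = 0.0667). Less that of the smooth muscle markers it was 0.94 ± 0.08 and 0.81 ± 0.24 (exact permutation p = 0.40, adjusted p = 0.47). The pericyte measure includes Rgs5, whose log2 fold change was 1.44 against a median of 0.02 over the 11 markers. It was not computed without Rgs5, so it does not show a fall relative to pericyte markers in general. Of 12 fibroblast markers 2 rose and 2 fell (33.3% called), with a summed level of 4638 to 5210 CPM (wild type) and 3702 to 4677 CPM (knockout). Of 4 platelet markers tested 1 fell, and of 9 cardiac markers 1 rose and 1 fell. The one that fell, Nppa, the atrial natriuretic peptide and a ligand of the receptor cyclase Npr1, was 32.2 to 90.0 CPM (wild type) and 0 to 0.14 CPM (knockout), under the floor of 3 reads. All 20 circadian clock genes were called, 4 higher and 16 lower, and in 18 of 20 knockout replicate 1 was the knockout library nearest to the wild type mean. Without it the log2 fold changes were -1.27 for Nos3, -0.34 for Gucy1b3 and 0.58 for Gucy1a2, each still called. The part of the clock genes in these results was not tested.

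The genes whose profile over the 8 libraries was most like that of each called gene were found by the root mean square difference of log2(CPM + 0.5), each profile centred on its own mean. For Nos3 the 5 nearest included Stbd1, a glycogen-binding protein (0.11), the gene model Gm13243 (0.12), the neuropeptide gene Gal (0.16) and the gene model Gm16174 (0.16). Stbd1 went from 35.7 ± 2.04 to 14.1 ± 1.58 CPM. For Gucy1a2 they were Nav1 and Heg1 (0.09 each), and Heg1 went from 144 ± 18.2 to 194 ± 44.2 CPM. For Gucy1b3 they were Sephs2 (0.04) and Scrib (0.05). With 14065 profiles compared over 8 libraries, such likeness is a description.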

How the data were processed

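Libraries were CAGE of lung RNA. Tools in the submitters' processing notes are HISAT2 2.0.5, BWA 0.7.12-r1039 and edgeR, with build mm9; neither role nor order is given. The values deposited by the authors are CPM per gene with 2 decimals. In these, 100% of values were whole multiples of 1 read within 0.1 reads. Reads and totals (13014134 to 18593913) were recovered from these steps, and 3 reads are the floor for counting error.

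The test, on log2(CPM + 0.5), was limma 3.58.1 (R 4.3.3, variance trend, genotype only) for every gene that reached 1 CPM in 4 or more libraries. Adjusted p are Benjamini-Hochberg over all 14065 genes, two-sided. Fold changes on this scale understate those of low genes. Within-library measures used two-sided exact permutation tests over 70 assignments, adjusted over the 7 measures; with 4 against 4 libraries the smallest p is 0.0286, and at least 5 measures would have to reach it for an adjusted p under 0.05. Libraries of the same genotype were distinct (chi-square per gene 10.9 to 18.2 for pairs). The limma step was tested on simulated data, in which far fewer genes were changed than were called here. That test therefore does not measure the error rate in these data.

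Alternatives were pseudocounts, filters, TMM, median-ratio and quantile scaling, edgeR 4.0.16, DESeq2 1.42.0, the replicate block and leaving out each library. Genes, lists, tests and alternatives were chosen with earlier results of these data known. Named are all 10 genes, called list members (the 3 smallest adjusted p of a list) and nearest profiles; others are marked where they appear, or stand as values beside a count. A few genes that this rule names are not reported here. RefSeq sequences were missing for Nos3, Prkg2 and Pde9a. GENCODE M21 (GRCm38) was used for names, overlaps and neighbours: it holds 15066 of the identifiers. No member overlapped another listed gene except Prkg1, and a copy of at least 97% identity over 75 nt of the first 200 nt was found for Pde9a alone, in 2 models that are not listed.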

Additional observations from a re-analysis of the deposited data

Results flagged for a closer look

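A library was set apart where its gap to the nearest of the other 3 of its genotype exceeded Dixon's 95% critical value, and chance does so in about 1 in 20 groups. Of 34 groups of 4 libraries, 5 did. The groups are not independent, because the within-library measures are built from the same genes, so this count is not a test against that rate. Gucy1a3 was 80.95 CPM in knockout replicate 3, against 98.7 to 100.3 CPM in the other 3. Prkg1 was 10.5 CPM in wild type replicate 4, against 11.7 to 11.9 CPM. Pde1a was 3.18 CPM in knockout replicate 1, against 3.99 to 4.07 CPM. The log2 ratio of alpha subunits to Gucy1b3 was -0.40 in wild type replicate 2, against -0.14 to -0.10. The Pde5a share of the 4 phosphodiesterases was 67.8% in knockout replicate 3, against 76.6% to 77.3%. Knockout replicate 3 had the lowest value of its genotype for Gucy1a3, Gucy1b3, Prkg1 and Pde5a and the highest for Nos3 and Pde9a.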

How the results depend on the processing

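Over 18 alternatives Nos3 stayed lower (log2 fold change -1.47 to -1.27, adjusted p 2.4e-21 to 0.00039) and called in each. Of the 10 genes, 1 was called higher and 2 lower under each change of pseudocount, filter, scaling or tool and with the replicate block. Leaving out 1 library gave 0 to 1 higher (0 without wild type replicate 1 or 4) and 1 to 2 lower (1 without knockout replicate 3). Of the other pathway genes, 12 fell with TMM scaling, 12 with median-ratio scaling, 12 with quantile normalization, 12 with edgeR and 12 with DESeq2, in place of 7. Quantile normalization left 4 that rose. Leaving out 1 library gave 3 to 11 that fell. TMM scaling moved the median of all genes by only -0.02 on the log2 scale. The signs of Gucy1a3, Prkg1, Pde5a, Pde1b and Pde9a, none of them called, turned in 1 to 9 alternatives. No within-library measure passed its adjusted threshold in any alternative. Deviations of same-numbered libraries correlated at -0.003 to 0.065, and 3 of 8 libraries correlated best with their own number, so the numbers are not taken to pair mice. On the recovered reads edgeR called 2247 genes higher and 2326 lower. With the replicate block 2384 genes were higher and 2014 lower, against 2341 and 2010, and among the named genes the block ended the calls of Atp2a2 (adjusted p = 0.069) and Rock2 (adjusted p = 0.089). Pde1a, Pde1b and Abcc4 fell under the filter of 5 CPM and have no value there. Depth limits Pde1b and Pde1a most, at 27 to 108 reads per library.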
